A study of Mus musculus with 59 samples.

Results

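The replication-dependent histone genes were taken as all symbols that start with Hist1h, Hist2h, Hist3h or Hist4h, which gave 68 of the 52060 gene symbols in the series. By type they held 6 H1, 20 H2A, 17 H2B, 12 H3 and 13 H4 symbols, and 54 of the 68 lie on mouse chromosome 13, 10 on chromosome 3, 3 on chromosome 11 and 1 on chromosome 6. A member was described in a table where its mean value was 10 or more, which 51 symbols reached in at least 1 table and 42 in every table used. The other 17 stayed under 10 in every table, and 12 of these were H2A symbols. The name describes most but not all members: the testis forms Hist1h1t, Hist1h2aa and Hist1h2ba also fall under the symbols. So do the pseudogenes Hist3h2bb-ps, Hist1h2aj and Hist1h2al, the last of which, like Hist1h2aj, is among the low H2A symbols.

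RNA-seq was made from haematopoietic progenitors sorted from C57BL/6 mouse bone marrow. KLS cells (Lin-, c-Kit+, Sca-1+) contain the stem cells, while GMPs (granulocyte-monocyte progenitors) give rise to neutrophils and monocytes. The series has 59 samples in 27 groups, and 36 libraries with a column that could be matched to a group were used. WT animals were Daxx +/+ Cre +/-, Daxx-KO animals Daxx F/F Cre +/-, and double knockouts (DKO) carried Pu.1 F/F besides Daxx F/F and Cre +/-, so every group carried the Cre transgene. In a separate Pu.1 line, WT was Pu.1 +/+ Cre +/- and Pu.1-KO was Pu.1 F/F Cre +/-. Cre came from Mx1Cre, which is switched on by pI:pC in adult mice and acts outside blood cells as well. Untimed libraries carry no time on their labels, and the others were collected 3 or 24 weeks post induction (w.p.i.). Besides these times, the study describes RNA-seq of KLS cells and GMPs from irradiated mice that had received bone marrow transplants. The titles of the untimed libraries do not say whether they came from such mice. The study describes no KLS or GMP RNA-seq apart from these times and the transplants, so transplanted mice are their likely source. Each of KLS cells and GMPs had 2 WT and 2 Daxx-KO untimed libraries. At 3 w.p.i. each had 3 WT, 3 Daxx-KO and 2 DKO libraries, and the Pu.1 line had 2 WT and 2 Pu.1-KO libraries of each. At 24 w.p.i. only the 2 WT libraries of each population could be matched. Letters (a, b, c) name libraries whose columns carry no replicate number, and 1 WT KLS library at 3 w.p.i. is called unnumbered. The labels do not say that libraries came from separate animals, so p-values measure the spread between these libraries only.

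A cell that copies its DNA has to supply new histones for the second copy, and the replication-dependent genes are transcribed in S phase for this. H2A, H2B, H3 and H4 form the nucleosome core, whereas the H1 linker histones bind the DNA between nucleosomes. The mRNAs of these genes lack introns and mostly end in a stem-loop instead of a poly(A) tail. SLBP binds this stem-loop and NPAT activates transcription at the histone clusters. Daxx, the gene deleted here, encodes a chaperone for H3.3, a replication-independent H3 encoded by H3f3a and H3f3b outside these clusters.

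Depth ranged from 3388906 to 29335964 gene reads per library, and the untimed libraries were uneven, with 3857858 gene reads in the shallowest and 22647397 in the deepest KLS library. Daxx was 22.8 to 44.6 in the untimed Daxx-KO GMPs against 143 and 215 in WT, and in the 4 tables with a Daxx deletion the libraries carrying it all lay below WT. Spi1, which encodes Pu.1, did not follow the Pu.1 labels in KLS cells: it was 3330 and 2993 in the libraries labelled DKO against 1669 to 2320 in WT, and 2920 and 1307 in those labelled Pu.1-KO against 2764 and 2080 in WT. Values are given per gene, and single exons of Spi1 were not examined, so they cannot show whether the allele was deleted. Within these data, directions drawn from a Pu.1 label in KLS cells rest on the label. The study's methods list a primer to determine Pu.1 recombination, whose results are not part of these data. In Pu.1-line GMPs Spi1 was lower in both Pu.1-KO libraries, at 2589 and 2707 against 3395 and 3934 in WT. In GMPs at 3 w.p.i. DKO, at 3846 and 2989, overlapped WT, at 4384, 3348 and 4604. Values are the authors' normalized counts, the tables were normalized separately, and tests stayed within a table. In sorted bulk samples, fewer cells of a type and less RNA per cell cannot be told apart.

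The sequences that give the family its name are shown first, since the genes were grouped by symbol alone. A 16-base element of 2 arms that can pair was found in annotated transcripts of 42 of the 68 members, against 0.0551% of 141689 transcripts of other genes. It is shown 5′ to 3′ with the pairing arms of 6 bases in capitals and the loop of 4 bases in lower case, the first form in 24 members of H1, H2A, H2B and H3, the second in 6 members of H1, H2B and H3, and the others in 7, 2 and 2 H4 members, whereas 1 further H2A member has the common arms with another loop.
Most common form: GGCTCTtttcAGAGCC
Second form: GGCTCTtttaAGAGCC
H4 form 1: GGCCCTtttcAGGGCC
H4 form 2: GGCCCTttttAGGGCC
H4 form 3: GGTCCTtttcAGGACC
The arms thus split by type, since the H4 members that hold the element have another base in the arms than the members of the other types. Among the linker genes the element was found for Hist1h1c, Hist1h1d, Hist1h1e and Hist1h1t but not in the annotated transcripts of Hist1h1a and Hist1h1b, which says only that these letters are not in those models.

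Because most members moved together in the results, the 130 bases before the start of 6 members of different types are shown, from RefSeq on GRCm38.p6, each on its coding strand. Capitals mark the motifs CCAAT (the NF-Y box), AAACACA (the H1 box), ATTTGCAT (the octamer), GGTCCG (in the H4 element that HINFP binds) and TATAAA, searched on both strands, so the reverse complements ATTGG and ATGCAAAT are in capitals too.
Hist1h1c, chr13:23738677-23738806, plus strand: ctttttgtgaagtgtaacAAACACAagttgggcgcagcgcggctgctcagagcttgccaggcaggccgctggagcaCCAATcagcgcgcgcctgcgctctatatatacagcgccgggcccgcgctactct
Hist1h1e, chr13:23622559-23622688, minus strand: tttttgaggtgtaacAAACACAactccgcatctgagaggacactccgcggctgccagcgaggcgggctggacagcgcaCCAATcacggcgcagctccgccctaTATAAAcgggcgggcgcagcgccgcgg
Hist1h2ab, chr13:23750958-23751087, plus strand: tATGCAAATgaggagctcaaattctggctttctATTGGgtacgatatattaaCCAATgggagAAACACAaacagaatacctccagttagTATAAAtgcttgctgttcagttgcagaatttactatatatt
Hist1h2bb, chr13:23746604-23746733, plus strand: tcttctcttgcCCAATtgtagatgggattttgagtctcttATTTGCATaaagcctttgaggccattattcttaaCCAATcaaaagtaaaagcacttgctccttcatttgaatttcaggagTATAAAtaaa
Hist1h3b, chr13:23752215-23752344, plus strand: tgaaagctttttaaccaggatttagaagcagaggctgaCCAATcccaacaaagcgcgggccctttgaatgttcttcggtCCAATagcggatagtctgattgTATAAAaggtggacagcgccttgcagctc
Hist1h4d, chr13:23581438-23581567, plus strand: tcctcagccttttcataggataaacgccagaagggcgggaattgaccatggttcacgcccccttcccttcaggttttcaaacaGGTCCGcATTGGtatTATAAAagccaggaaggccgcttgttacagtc
Over the RefSeq windows from 250 bases before to 50 after the start, which 58 members had, CCAAT was present in 46 of 46 windows of H1, H2A, H2B and H3 genes and in 3 of 12 of H4, against 37.4% of all 32851 windows. GGTCCG was in 11 of 12 H4 windows (8.25% of all), AAACACA in 5 of 6 H1 windows (7.18%) and ATTTGCAT in 12 of 30 H2A and H2B windows (1.74%). A match is a description of the letters and not evidence of binding.

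Read counts of single members are uncertain where copies are nearly identical. The median share of 50-base stretches found in no other gene was 58.2% for the 42 members that passed in every table and 20.3% for the 17 that stayed under 10. It was 10.2% for Hist1h4m, 14.4% for Hist1h4n and 17.3% in the median of the 12 low H2A symbols, against 91.5% for Hist1h1c and 100% for Hist1h1a and Hist1h1b. H2A genes together gave 0.614 to 3.83% of the histone reads of a library, whereas H2B genes gave 10.8 to 24.9%. How the authors counted reads that match several copies is not given in the sources used here, so the H2A levels are the least certain of the 5 types.

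Histone reads ranged from 1026 to 12396 RPM (reads per 1000000 gene reads of the library), a share that does not depend on the authors' scaling. In untimed KLS cells it was 3060 and 2878 in WT and 2363 and 1999 in Daxx-KO. In untimed GMPs it was 2631 and 2937 in WT and 1026 and 1215 in Daxx-KO. Both Daxx-KO libraries lay below both WT libraries in each population, with a wider gap in GMPs. At 3 w.p.i. the order in KLS cells was the opposite, with 3229, 5644 and 3623 in Daxx-KO and 5397 and 6370 in DKO, against 1770 and 1710 in the numbered WT libraries. The unnumbered WT library reached 4372 and overlapped the Daxx-KO libraries but not the DKO libraries. In GMPs at 3 w.p.i. the groups overlapped, with 11194, 4019 and 12396 in WT, 9813, 8341 and 7976 in Daxx-KO, and 5320 and 8688 in DKO.

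**Figure D1:**
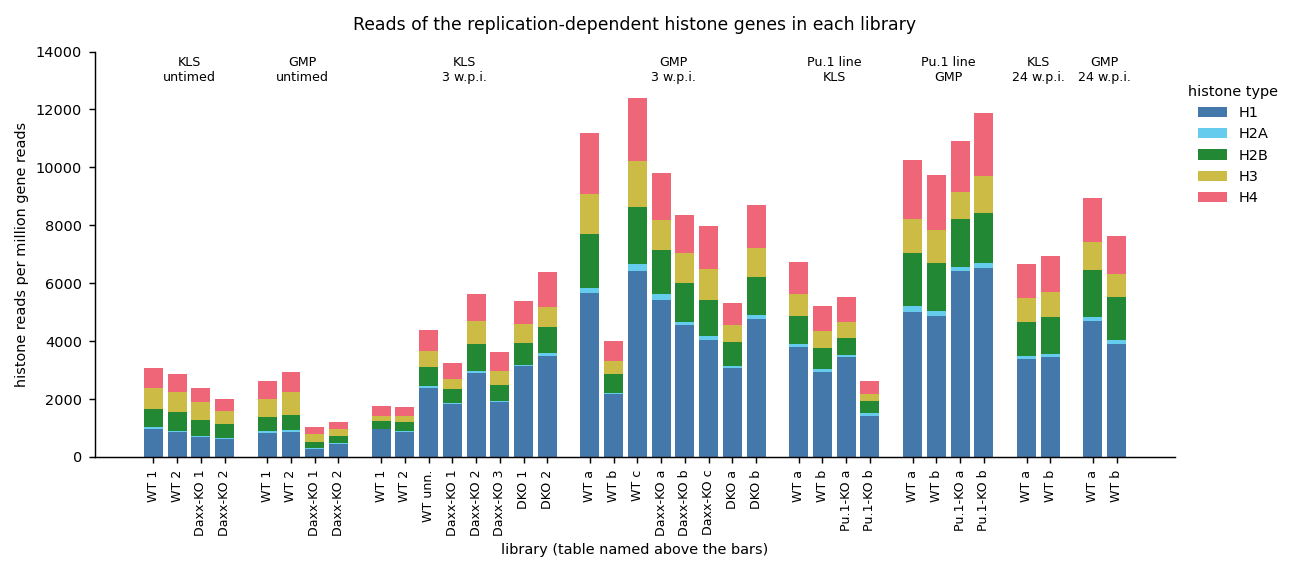
RPM of all 68 histone symbols in each of the 36 libraries, stacked by histone type, with 1 bar per library and the table named above each set of bars. The untimed Daxx-KO GMPs are lowest, at 1026 and 1215, and WT c of the GMPs at 3 w.p.i. (12396) and Pu.1-KO b of the Pu.1 line GMPs (11893) are highest.

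In the Pu.1 line the share was 6738 and 5206 in WT KLS cells and 5519 and 2637 in those labelled Pu.1-KO, which overlapped. In GMPs of that line it was 10268 and 9724 in WT and 10914 and 11893 in Pu.1-KO, both above WT. WT cells at 24 w.p.i. had 6677 and 6931 in KLS cells and 8954 and 7632 in GMPs. KLS and GMP libraries at 3 w.p.i. carry the same column tags in 8 pairs, and the GMP library had the higher share in 7 of 8, by a median of 2.28-fold and a range of 0.986-fold to 6.32-fold. The exception was DKO 1, with 5397 in KLS cells and 5320 in GMPs. These levels come from tables made separately, so the difference between populations was not tested.

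The mix of types differed between the experiments more than between the genotypes. H1 genes gave 27.1 to 36.7% of histone reads in the 8 untimed libraries and 48.9 to 62.4% in the other 28. H3 genes gave 20.2 to 27.4% in the untimed libraries and 8.61 to 13.8% in the others. The labels name 1 library kit for all, whereas the study's methods name one kit for transplanted mice and another for steady state, so kit, experiment and cell state cannot be told apart in this difference.

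The first comparison asks how loss of Daxx changed histone mRNA in untimed GMPs, where the fall was broadest. Of 48 members tested, 39 were lower in Daxx-KO and none was higher (limma on log2(value + 1), Benjamini-Hochberg adjusted p under 0.05 over all 12744 genes tested), where 16.5% of all genes were called lower. The median log2 fold change of the members was -1.30, against -0.01 for all genes tested. All 5 linker genes and all 12 H4 genes tested fell, with 9 of 10 H3, 10 of 14 H2B and 3 of 7 H2A genes. Daxx-KO and WT libraries did not overlap for 42 members, each lower, where 34.1% of all genes were lower without overlap.

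Hist1h1b, a linker histone, had 1244 and 1332 normalized counts in WT and 264 and 301 in Daxx-KO GMPs. Both Daxx-KO libraries were thus far below WT, and Hist1h1b fell by 2.19 on the log2 scale (SE 0.12, limma adjusted p = 5.63e-06). Hist1h4a, a core histone gene, had 403 and 385 in WT and 99.4 and 82.4 in Daxx-KO and fell by 2.11 (SE 0.17, adjusted p = 4.44e-05). Hist1h3g, an H3 gene of low level, had 76.8 and 91.3 in WT and 18.2 and 20.0 in Daxx-KO and fell by 2.08 (SE 0.34, adjusted p = 0.00162). These 3 genes showed the same order of libraries, with no overlap. The largest falls were those of 2 members of low level, the pseudogene Hist3h2bb-ps, with 19.5 and 34.3 in WT and 4.06 and 3.26 in Daxx-KO (-2.54, SE 0.66, adjusted p = 0.0170), and Hist1h4m, with 88.5 and 99.4 in WT and 12.2 and 22.8 in Daxx-KO (-2.42, SE 0.39, adjusted p = 0.00155).

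In each comparison 1 member of each type was followed, the one with the best mean rank of level over the 8 tables (Hist1h1c, Hist1h2ab, Hist1h2bc, Hist1h3b and Hist1h4d), which need not be the highest in a given table. Of these, 4 of 5 fell in untimed GMPs. Hist1h3b, an H3 gene, had 658 and 1000 in WT and 221 and 190 in Daxx-KO (-1.98, SE 0.19, limma adjusted p = 9.54e-05). Hist1h2ab, an H2A gene, had 113 and 61.4 in WT and 18.2 and 33.9 in Daxx-KO (-1.71, SE 0.42, adjusted p = 0.0137). Hist1h4d, an H4 gene, had 860 and 843 in WT and 458 and 462 in Daxx-KO (-0.89, SE 0.10, adjusted p = 0.000248). Each of these genes was lower in both Daxx-KO libraries, and Hist1h3b had the larger change of the core genes shown. The linker gene Hist1h1c had 1237 and 1438 in WT and 791 and 1118 in Daxx-KO and fell by 0.50 (SE 0.16, adjusted p = 0.0354).

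The changes nearest to 0 were those of H2B genes. Hist1h2bc had 628 and 844 in WT and 472 and 640 in Daxx-KO, so the groups overlapped and the change of -0.40 was not called (SE 0.18, limma adjusted p = 0.114). Hist2h2be had 52.0 and 38.0 in WT and 58.8 and 46.9 in Daxx-KO (0.24, SE 0.33, adjusted p = 0.639). Hist1h1c, Hist1h2bc and Hist2h2be are known to give polyadenylated transcripts as well as the stem-loop form, and all 3 had changes closer to 0 than the member median. Many other members lay on that side of the median too, and the part of polyadenylation was not tested. Hist1h2bq and Hist1h2br were at -0.24 and 0.39 and were not called either. The other uncalled members were 4 H2A genes and the H3 gene Hist2h3c2, each with a value below 0 and a wide SE.

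**Figure D2:**
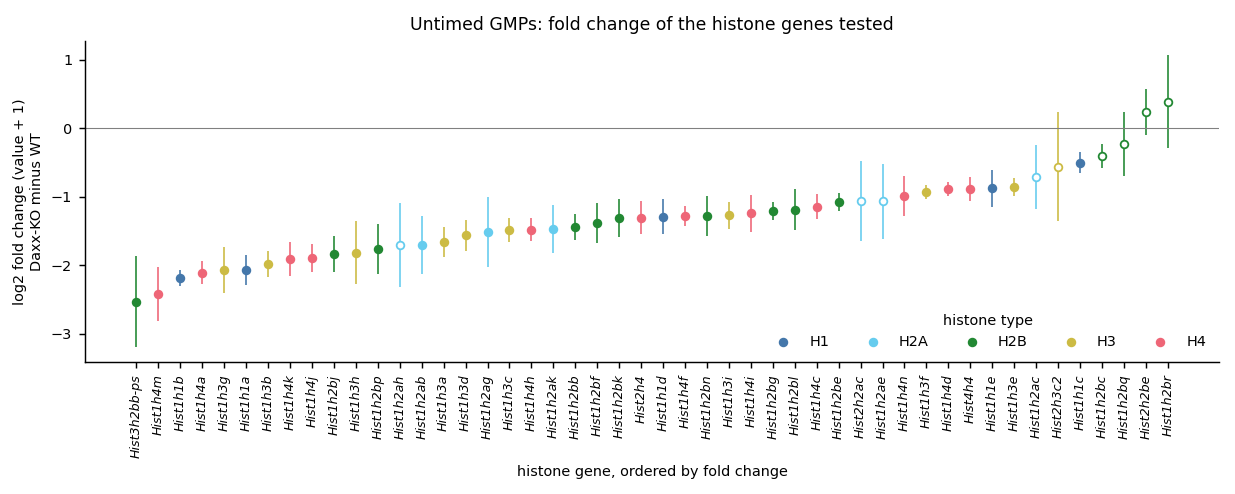
Log2 fold change (Daxx-KO minus WT, value + 1) of the 48 histone genes tested in untimed GMPs, ordered from lowest to highest, with bars of 1 SE from limma and colours for the histone type. Filled points are the 39 genes called lower, open points are not called, and the order runs from Hist3h2bb-ps at -2.54 to Hist1h2br at 0.39.

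Of 22 genes of histone mRNA transcription, processing and decay, 8 were called lower and 2 higher in the same libraries (median -0.23). Slbp fell by 0.77 (mean 539 in WT and 319 in Daxx-KO, limma adjusted p = 0.00497) and Npat by 0.42 (909 and 679, adjusted p = 0.0104). Of 35 genes of DNA replication and S phase 33 were called lower, with a median of -1.21, among them Mcm2 at -0.89 and Pcna at -0.85. Of 25 genes of G2 and mitosis 18 were called lower, with a median of -0.87, among them Mki67 at -0.77 and Top2a at -1.26. Among replication-independent histones, H2afz fell by 1.00 (adjusted p = 0.000847), whereas the H3.3 genes H3f3a and H3f3b were at 0.39 and 0.38 and were not called (adjusted p = 0.108 and 0.0896). The histone median was thus close to that of the S-phase genes.

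The untimed Daxx-KO GMPs also differed in cell type markers. The 8 neutrophil markers summed to 727 and 1006 RPM in WT and 5100 to 7151 in Daxx-KO, with 4 of 7 tested called higher and 2 called lower, and the 10 KLS markers to 883 and 888 against 706 to 803, with 6 of 8 tested called lower and 1 higher. Depth differed within groups (3388906 and 17307510 gene reads in Daxx-KO). The part of cell mix and depth in the histone fall was not tested. The count of called members was between 26 and 40 without any single library.

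The same question was asked in untimed KLS cells. Of 49 members tested 11 were lower in Daxx-KO and none was higher, where 12.5% of all 13508 genes were called lower. The median log2 fold change was -0.34, against 0.03 for all genes. The 11 were 3 linker genes (Hist1h1c, Hist1h1d, Hist1h1e), the H2B genes Hist1h2bb and Hist1h2bj, and 6 of 12 H4 genes. No H2A or H3 gene was called, and 25 members were lower without overlap (29.8% of all genes).

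Hist1h1e, a linker histone, had 1455 and 1430 in WT and 1056 and 817 in Daxx-KO and fell by 0.64 (SE 0.13, limma adjusted p = 0.0104). Hist1h2bj had 222 and 196 in WT and 116 and 122 in Daxx-KO (-0.81, SE 0.19, adjusted p = 0.0158). Hist1h4k had 181 and 188 in WT and 112 and 118 in Daxx-KO (-0.68, SE 0.19, adjusted p = 0.0341). In each case both Daxx-KO libraries lay below both WT libraries. Hist1h4m had 77.4 and 62.0 in WT and 36.1 and 25.2 in Daxx-KO and fell most (-1.17, SE 0.36, adjusted p = 0.0477), Hist1h4i fell by 0.79 (adjusted p = 0.0398) and Hist1h4h by 0.68 (adjusted p = 0.0247).

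Of the members followed in every comparison, Hist1h4d had 1046 and 1006 in WT and 782 and 752 in Daxx-KO (-0.42, SE 0.11, limma adjusted p = 0.0224). Hist1h1c had 1870 and 1681 in WT and 1408 and 1273 in Daxx-KO (-0.41, SE 0.11, adjusted p = 0.0289). Hist1h3b, at 705 and 916 in WT and 613 and 310 in Daxx-KO, was just outside the threshold (-0.88, SE 0.28, adjusted p = 0.0540). Hist1h2ab was at -0.06 and Hist1h2bc at 0.04, with overlapping libraries. Neither Hist1h1a (-0.20) nor Hist1h1b (-0.37) was called here. The single member higher in Daxx-KO without overlap was Hist2h2be, with 80.8 and 62.0 in WT and 103 and 132 in Daxx-KO (0.71, SE 0.27, adjusted p = 0.0927), where 32.9% of all genes were higher without overlap.

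These calls rested on few libraries. Without WT 1, WT 2, Daxx-KO 1 or Daxx-KO 2 the number of called members was 1, 6, 2 and 0, and with no filter on low values it was 2. Of the S-phase genes 4 of 35 were called lower (median -0.24) and of the mitosis genes 9 of 25 (median -0.35), among them Mki67 at -0.44 and Top2a at -0.39. Slbp, at -0.14, and Npat, at -0.07, were not called. The 10 KLS markers summed to 5813 and 5915 RPM in WT and 1325 to 1390 in Daxx-KO, with 9 of 10 called lower and 1 higher. The 10 GMP markers summed to 1375 and 1389 RPM in WT and 2451 and 3001 in Daxx-KO, with 7 called higher and 2 lower. The part of these markers in the histone result was not tested.

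**Figure D3:**
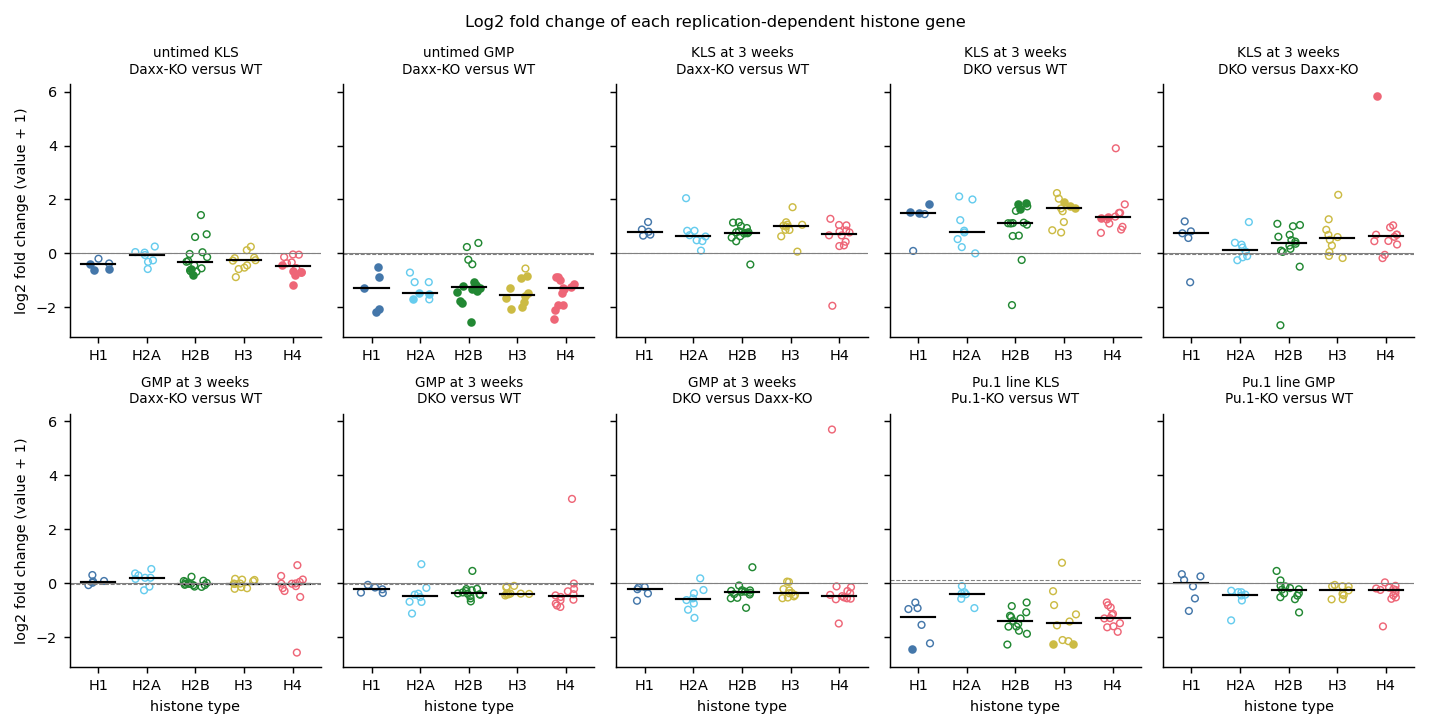
Log2 fold change (value + 1) of every histone gene tested in each of 10 comparisons, by histone type, with 1 point per gene, filled where called by limma, a black bar for the median of the type and a dashed line for the median of all genes. Points lie mostly below 0 in untimed GMPs, mostly above 0 at 3 w.p.i. in KLS cells, and mostly below 0 in those of the Pu.1 line.

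At 3 w.p.i. 3 comparisons in KLS cells share libraries, and their values are given side by side. For Daxx-KO versus WT, 47 of 49 members had a log2 fold change above 0 and the median was 0.78 (all genes -0.00), but none was called, where 0.257% of 15200 genes were called, and 5 were higher without overlap, where 9.07% of all genes were. At an unadjusted p under 0.05 there were 14 members by limma, and edgeR and DESeq2 called none after adjustment. The share of all genes at that unadjusted threshold is not given here, so the 14 cannot be set against it. The lowest adjusted p was that of Hist1h3h, an H3 gene with 56.2, 30.01 and 116 in WT and 161, 248 and 181 in Daxx-KO (1.71, SE 0.48, limma adjusted p = 0.252). For DKO versus WT, 11 of 49 were called higher and none lower, where 9.24% of all genes were called higher, and the median was 1.31. For DKO versus Daxx-KO, 1 was called higher, where 8.17% of all genes were, and the median was 0.46. DKO was above WT without overlap for 27 of 49 members, where 26% of all genes were.

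The linker gene Hist1h1e had 3396, 2916 and 7948 in WT, 5646, 9486 and 5773 in Daxx-KO and 16260 and 14578 in DKO KLS cells. The DKO libraries were above all others, the third WT value is the unnumbered library, and Hist1h1e rose in DKO versus WT by 1.85 (SE 0.39, limma adjusted p = 0.0115). Hist1h3c, an H3 gene, had 238, 292 and 585 in WT, 359, 907 and 467 in Daxx-KO and 1200 and 1374 in DKO, and rose by 1.90 (SE 0.42, adjusted p = 0.0152). Hist1h2bn, an H2B gene, had 363, 481 and 1189 in WT, 717, 1641 and 855 in Daxx-KO and 2017 and 2280 in DKO, and rose by 1.85 (SE 0.47, adjusted p = 0.0245).

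In all 3 genes DKO did not overlap either other group, and the unnumbered WT library was the highest of WT. Hist1h2bf rose by 1.84 (adjusted p = 0.0286) and Hist1h3h by 1.76 (adjusted p = 0.0489) in the same comparison. Hist1h1c had 4692, 3452 and 9896 in WT and 15442 and 15537 in DKO (1.51, SE 0.37, limma adjusted p = 0.0225), and Hist1h4d had 2032, 1689 and 3594 in WT and 5336 and 6608 in DKO (1.36, SE 0.34, adjusted p = 0.0244). Hist1h3b (1.67, adjusted p = 0.0743), Hist1h2ab (0.78, adjusted p = 0.335) and Hist1h2bc (0.64, adjusted p = 0.176) were not called. Hist1h1a, another linker gene, was at 0.09 (adjusted p = 0.918), with 781, 1370 and 2887 in WT and 1223 and 1969 in DKO. Against Daxx-KO, DKO was at 0.70 for Hist1h4d, 0.60 for Hist1h3b, 0.32 for Hist1h2ab and 0.05 for Hist1h2bc, and none of these was called.

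The counts turned on the unnumbered WT library. Without it, 7 members were called higher in Daxx-KO versus WT and 32 in DKO versus WT. The shares of all genes called in these fits are not given here, so the counts cannot be set against them. Without WT 1, WT 2, DKO 1 or DKO 2 the DKO versus WT count was 1, 1, 0 and 2. DESeq2 on the recovered reads called 17. In that library the 25 mitosis genes summed to 4130 RPM, against 1662 and 2576 in the numbered WT libraries, and the 8 neutrophil markers to 2134, against 192 and 40.4.

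Cell cycle genes moved in the same comparisons. In DKO versus WT, 14 of 25 mitosis genes were called higher (median 1.49) and 5 of 35 S-phase genes (median 0.45), with Pcna at 0.83 (adjusted p = 0.0431) and Slbp at 0.83 (adjusted p = 0.0379). Mcm2 at 0.45, Mki67 at 1.56 and Top2a at 1.43 were not called, and H3f3b rose by 0.67 (adjusted p = 0.0311). In Daxx-KO versus WT no gene of either list was called, with medians of 0.67 for mitosis and 0.46 for S phase. The 8 neutrophil markers summed to 10109 and 11197 RPM in DKO, 74.4 to 463 in Daxx-KO and 40.4 to 2134 in WT, and the 10 KLS markers to 1797 and 2606, 2812 to 5596 and 4866 to 6945. The 10 GMP markers summed to 7654 and 8811 RPM in DKO, 1410 to 1781 in Daxx-KO and 1830 to 4374 in WT. In DKO versus WT 3 GMP markers were called higher and 1 lower. B cell markers reached 2397 in Daxx-KO 2, the Daxx-KO library with most histone reads, and 122 in the lowest Daxx-KO library. Their part in the histone values was not tested.

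**Figure D4:**
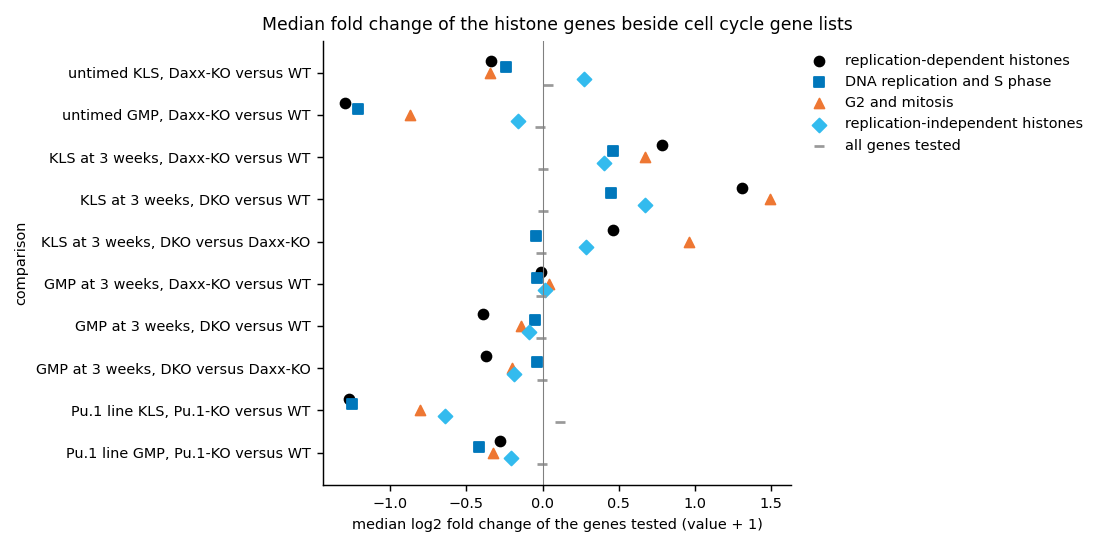
Median log2 fold change (value + 1) of the histone genes, of 35 S-phase genes, of 25 mitosis genes, of the replication-independent histones and of all genes tested, with 1 row per comparison. The histone and S-phase medians are both near -1.2 to -1.3 in untimed GMPs, whereas in DKO versus WT KLS cells at 3 w.p.i. the histone median of 1.31 lies nearer the mitosis median of 1.49 than the S-phase median of 0.45.

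In GMPs at 3 w.p.i. no histone gene was called in any of the 3 comparisons, which share libraries. The members had a median of -0.01 in Daxx-KO versus WT, -0.39 in DKO versus WT and -0.37 in DKO versus Daxx-KO, where 0.0948%, 0.292% and 0.0583% of 13714 genes were called. At an unadjusted p under 0.05 there were 0, 0 and 2 members by limma (shares of all genes at that threshold not given here), and edgeR and DESeq2 called none. WT GMPs were themselves uneven: Hist1h1c had 22899, 7657 and 24928 in WT a, b and c, against 20202, 20143 and 12248 in Daxx-KO and 12789 and 16756 in DKO. Hist1h4d had 10934, 3153 and 11749 in WT, 7454, 6408 and 6762 in Daxx-KO and 3233 and 7027 in DKO.

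For both genes WT b was the lowest library and WT a and c the highest, so that the WT range enclosed every other library. WT b was the lowest library of its table for each of the 5 histone types but not for S-phase genes, which summed to 6919 RPM in it against 6731 and 6642 in WT a and c. Its mitosis genes summed to 5719 RPM, the lowest of the table, against 8225 and 9916 in WT a and c. The spread of these groups limits what could be seen: the SE of Hist1h1c was 0.43 for Daxx-KO versus WT, at a change of 0.06 (limma adjusted p = 1). The other members followed throughout were at -0.14 for Hist1h3b, -0.02 for Hist1h2bc and 0.20 for Hist1h2ab, and in DKO versus WT at -0.41, -0.43 and -0.17. In DKO versus WT 45 of 48 members had a value below 0, and 1 member, Hist2h2be, was higher without overlap, at 46.7 and 59.2 in DKO against 44.7, 28.2 and 43.5 in WT, where 10.1% of all genes were.

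For Pu.1 line KLS libraries the result depended on how they were scaled. On the authors' scaling, of 46 members tested 45 had a log2 fold change below 0, the median was -1.27 (all genes 0.12) and 3 were called lower, where 0.341% of 23459 genes were. Pu.1-KO lay below WT without overlap for 36 members (31.9% of all genes). Hist1h1a had 7705 and 4334 in WT and 2407 and 464 in Pu.1-KO (-2.45, SE 0.65, limma adjusted p = 0.0375). Hist1h3a had 813 and 543 in WT and 318 and 60.2 in Pu.1-KO (-2.25, SE 0.59, adjusted p = 0.0318). Hist1h3f had 1685 and 1050 in WT and 968 and 80.0 in Pu.1-KO (-2.25, SE 0.57, adjusted p = 0.0269).

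In these 3 genes the groups did not overlap, and Pu.1-KO b was much the lower library. Without Pu.1-KO a the member median was -1.96, and without Pu.1-KO b, WT a or WT b it was -0.57, -0.93 and -1.60. A scaling by TMM moved the median of all genes by 0.14 and called 5 members lower, and DESeq2 called 1. A scaling to total gene reads, chosen after seeing the data, moved the median of all genes by 0.46 and called no member (none of 46). The member median was -0.80, and 25 members were lower without overlap. The share of all genes lower without overlap on that scale is not given here. On that scale Hist1h1e had 1018 RPM in Pu.1-KO a, above both WT libraries (927 and 722), and 467 in Pu.1-KO b. Hist1h1c (-0.92), Hist1h1e (-0.72), Hist1h3b (-0.81), Hist1h2bc (-0.72), Hist1h4d (-1.14) and Hist1h2ab (-0.34) were not called. The S-phase genes had a median of -1.25 and the mitosis genes -0.80, and none of either list was called. The neutrophil markers summed to 5430 and 8150 RPM in Pu.1-KO against 1478 and 2160 in WT, and their part was not tested.

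In GMPs of the Pu.1 line, on the authors' scaling, none of 47 members was called by limma, where 17.6% of 19337 genes were. At an unadjusted p under 0.05 there were 9 members, and the share of all genes at that threshold is not given here. Pu.1-KO lay below WT without overlap for 23 members, where 33.5% of all genes did. The median was -0.28, and edgeR called 0 members and DESeq2 1. Hist1h2bk came nearest, with 2642 and 2386 in WT and 1286 and 2155 in Pu.1-KO (-0.59, SE 0.24, limma adjusted p = 0.0614). Without Pu.1-KO b the member median was -0.57 and without Pu.1-KO a it was -0.08, so the result depends on which Pu.1-KO library is kept. Scaled to total gene reads, which moved the median of all genes by 0.23, the member median was -0.04. On that scale 3 members were called higher and 1 lower, and 9 were higher and 11 lower without overlap. The shares of all genes on that scale are not given here, so these counts cannot be set against them. The directions in these GMPs therefore turn on the scaling: Hist1h1b had 8058 and 8090 normalized counts in WT and 6973 and 7941 in Pu.1-KO, but 605 and 579 RPM in WT and 672 and 617 in Pu.1-KO. The 3 higher members were linker genes, Hist1h1c, Hist1h1d and Hist1h1e, and the lower one was Hist1h1a. Hist1h1c (22933 and 22662 in WT, 22677 and 32577 in Pu.1-KO) and Hist1h4d (11199 and 11446, 6926 and 13108) show this spread on the normalized counts: Pu.1-KO a was within or below the WT values and Pu.1-KO b above them. As RPM, Hist1h1c was above WT (1723 and 1622) in both Pu.1-KO libraries (2184 and 2531). Hist1h3b was at -0.06, Hist1h2bc at -0.46 and Hist1h2ab at -0.28. All 8 neutrophil markers were called higher, with sums of 12840 and 16158 RPM against 2093 and 2754.

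The linker histones did not move as a block. In untimed GMPs Hist1h1a had 652 and 532 in WT and 110 and 177 in Daxx-KO and fell by 2.07 (SE 0.22, limma adjusted p = 0.00016), close to Hist1h1b at -2.19. Hist1h1d, with 1011 and 1093 in WT and 304 and 604 in Daxx-KO, fell by 1.29, and Hist1h1e, with 1192 in both WT libraries and 444 and 942 in Daxx-KO, by 0.88. With Hist1h1c at -0.50, the order of fall was Hist1h1b, Hist1h1a, Hist1h1d, Hist1h1e and Hist1h1c, and the SEs of neighbours in this order overlap except between Hist1h1a and Hist1h1d. RPKM are reads per kilobase of annotated exon, scaled to depth. As a mean over the WT and Daxx-KO libraries of untimed GMPs, Hist1h1b was the highest linker gene by RPKM (163), followed by Hist1h1c (111). In the Daxx-KO libraries alone Hist1h1c was higher than Hist1h1b, with 115 and 158 RPM over 1560 exon bases. Hist1h1b had 38.4 and 42.6 RPM over 743 exon bases there. As a mean over all GMP libraries at 3 w.p.i. Hist1h1c was highest by RPKM (864, with Hist1h1b at 762). These orders depend on the annotated exon lengths, which are 1930 bases for Hist1h1e and 7425 for Hist1h1d. By mean normalized counts in untimed GMPs, Hist1h1c (1146) and Hist1h1e (942) were above Hist1h1b (785).

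As a share of the reads of the 5 genes, Hist1h1a had the widest range as a ratio over the 36 libraries, from 2.56 to 13.95% (5.45-fold), whereas in percentage points Hist1h1c had the widest (23.2 to 41.4%, 18.2 points, against 11.4 for Hist1h1a). In untimed GMPs it gave 12.2 and 9.53% in WT and 5.73 and 5.65% in Daxx-KO. In KLS cells at 3 w.p.i. it gave 6.215, 12.01 and 9.11% in WT, 11.1, 12.4 and 11.1% in Daxx-KO and 2.56 and 4.13% in DKO. In the Pu.1 line it gave 10.1 and 9.16% in WT and 4.59 and 2.96% in Pu.1-KO KLS cells, and 8.63 and 8.60% in WT and 5.35 and 5.15% in Pu.1-KO GMPs.

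In these 4 sets the named knockout lay below WT without overlap, whereas in untimed KLS cells Daxx-KO (10.2 and 13.95%) lay above WT (9.81 and 10.1%), and in GMPs at 3 w.p.i. the groups overlapped (4.69 to 11.04%). With groups of 2 or 3 an exact permutation test could not reach a p under 0.05, and none was run on these shares. In KLS cells at 3 w.p.i. Hist1h1a had 2620, 4946 and 2682 in Daxx-KO and 1223 and 1969 in DKO, a change of -1.07 without overlap that was not called (SE 0.48, limma adjusted p = 0.171), as 1 of 3 members lower without overlap (22.3% of all genes). In the same comparison Hist1h1e was at 1.19 (adjusted p = 0.0671), Hist1h1c at 0.82 (adjusted p = 0.179), Hist1h1d at 0.75 (not called) and Hist1h1b at 0.57 (adjusted p = 0.468). In each of the 4 sets the neutrophil marker sum was higher in the libraries with the low Hist1h1a share. Within the Daxx-KO GMPs at 3 w.p.i. the library with 5.59% had a neutrophil marker sum of 23637 RPM, and those with 10.2 and 11.04% had 3247 and 3557. Within WT GMPs the libraries with 5.97, 7.17 and 8.89% had 23243, 18067 and 4817. Within DKO GMPs those with 4.69 and 8.85% had 13569 and 9122. WT KLS cells at 3 w.p.i. did not follow this order, since WT 1, with the lowest share (6.215%), had 192 RPM and the unnumbered library, with 9.11%, had 2134. The Pu.1-KO libraries reversed the order. In KLS cells 2.96% came with 5430 RPM and 4.59% with 8150, and in GMPs 5.15% with 12840 and 5.35% with 16158. Daxx-KO KLS cells (untimed and at 3 w.p.i.), Pu.1-line WT cells and WT cells at 24 w.p.i. were reversed too. Untimed GMPs, untimed WT KLS cells and DKO KLS cells at 3 w.p.i. followed the order. The part of the neutrophil content in the Hist1h1a share was not tested.

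**Figure D5:**
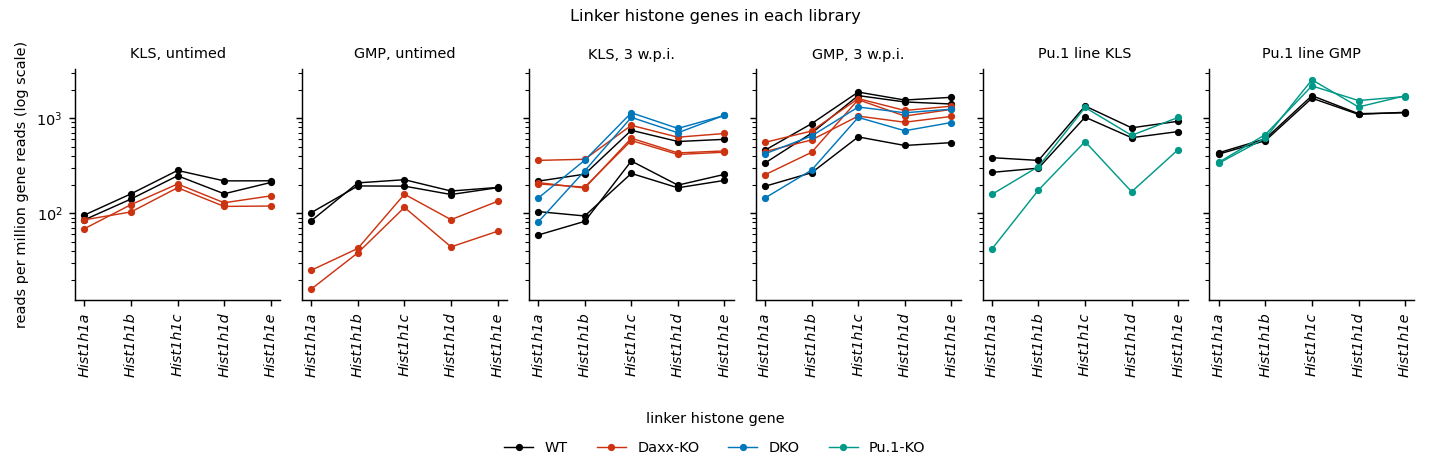
RPM of the 5 linker histone genes, on a log scale, with 1 line per library and colours for the genotype, in 6 tables. Lines of DKO and Pu.1-KO KLS cells and of untimed Daxx-KO GMPs drop at Hist1h1a relative to the other linker genes. The drop is not particular to them. Hist1h1a gave 5.35 and 5.15% of linker reads in Pu.1-KO GMPs. In GMPs at 3 w.p.i. it gave 4.69% in DKO a, 5.59% in Daxx-KO b and 5.97% in WT a.

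Hist1h1t, the testis linker form, stayed at or below 60.8 in every library of the tables, where Hist1h1c ranged from 791 to 33753. In KLS cells of the Pu.1 line it had 36.6 and 60.8 in WT and 35.1 and 1.92 in Pu.1-KO (-2.23, limma adjusted p = 0.188).

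At 3 w.p.i. the H4 gene Hist1h4m differed widely between WT libraries. Only 10.2% of its 50-base stretches are found in no other gene, so its counts are uncertain. In KLS cells Hist1h4m had 0, 7.06 and 73.0 in WT, 4.53, 0.897 and 0 in Daxx-KO, and 116 and 134 in DKO. For GMPs the values of Hist1h4m were 0, 0.883 and 222 (WT), 0, 0 and 0.988 (Daxx-KO) and 27.4 and 150 (DKO). The high WT value belongs to the unnumbered KLS library and to GMP library c, which carry the same column tag, and the DKO libraries of both populations were high as well. Hist1h4m was the only member called in DKO versus Daxx-KO KLS cells (limma adjusted p = 0.0322), and a fold is not given because the Daxx-KO libraries were at or near 0. That call was lost (adjusted p from 0.0520 to 0.179) without any single library of the 2 groups. Hist1h4n, another H4 gene, had 34.4 to 232 in every KLS library of the table. In GMPs Hist1h4n had 281, 244 and 336 in Daxx-KO and 68.0 and 148 in DKO, lower without overlap (9.98% of all genes) and so opposite to Hist1h4m, at -1.50 (SE 0.58, limma adjusted p = 0.510, not called).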

How the data were processed

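The submitters' processing notes name CASAVA 1.8.4, cutadapt 1.13, STAR 2.5.3, DESeq2 1.16.1 and the mm10 build. The study names GENCODE release M14 for its bioinformatic analyses. The read counter and use of strand are not given in the sources used here. The authors deposited gene counts divided by DESeq2 size factors (a normalized signal, with each table scaled on its own). Whole reads were recovered from these, with 100% of values whole within 0.01. Of the columns of per-sample values, 23 in gene tables and 52 in repeat tables could not be matched to a group or were not needed and were not used. Depth was 3388906 to 29335964 gene reads per library.

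Genes with a mean of 10 or more in a table were tested with limma 3.58.1 in R 4.3.3 (trend, log2(value + 1), all matched libraries of a table in 1 fit), with Benjamini-Hochberg adjustment over all genes tested and a threshold of 0.05. A fold change on this scale understates that of low genes. Members and gene lists were chosen with earlier results of these data known. Named genes were the member of each type with the best mean rank of level over the tables, up to 5 called members with the largest change in each direction, and the linker genes; Hist2h2be, Hist1h3h, Hist1h2bk and Hist1h4n were added after their values were seen. The shares of linker reads were described after their values were seen. Alternatives used edgeR 4.0.16 and DESeq2 1.42.0 on the recovered reads, TMM factors, scaling to total gene reads (added after seeing the data), a pseudocount of 5, no filter, a replicate block and each library left out. The scripts were tested on simulated data.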

Additional observations from a re-analysis of the deposited data

How the results depend on the processing

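Counts of called histone genes were 11 (untimed KLS cells), 39 (untimed GMPs), 0, 11 and 1 (KLS cells at 3 w.p.i., Daxx-KO versus WT, DKO versus WT, DKO versus Daxx-KO) and 3 and 0 (Pu.1 line, KLS cells and GMPs). Without any single library they ranged from 0 to 6, 26 to 40, 0 to 7, 0 to 32, 0 to 2, 0 to 32 and 0 to 23, and in GMPs at 3 w.p.i. they were 0 throughout. With no filter on low values the untimed KLS count was 2. DESeq2 on the recovered reads gave 17 (DKO versus WT) and 2 (DKO versus Daxx-KO) in KLS cells, 1 in KLS cells of the Pu.1 line and 1 in its GMPs, and TMM factors gave 5 and 1 in the Pu.1 line. Scaled to total gene reads (added after seeing the data), the Pu.1 line gave 0 in KLS cells and 4 in GMPs, and the counts of the other comparisons stayed within 1.5 times. Without Pu.1-KO a, Hist1h3b in Pu.1-line GMPs was at 0.35 and without Pu.1-KO b at -0.48, both past the limma threshold, against -0.06 with both libraries. The cause of these changes was not tested. A library left out of a group of 2 leaves 1 that is assumed to vary like the others. The shares of all genes called in these alternative fits are not given here, so their counts cannot be set against them.

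Whether replicate numbers pair the untimed libraries could not be decided. With 2 libraries per group, the correlations of deviations for same-numbered and crossed libraries are equal and opposite by construction. They were -0.01 and 0.01 in untimed KLS cells and -0.111 and 0.111 in untimed GMPs. In KLS cells at 3 w.p.i., where WT and DKO had only 2 numbered libraries each, same-numbered pairs were at -0.214 to 0.069. The other pairs there were at -0.146 to 0.214. With a replicate block the counts were 18 in untimed KLS cells, 39 in untimed GMPs (41 with the numbers crossed, chosen after seeing the data), and 4, 31 and 1 in KLS cells at 3 w.p.i., the last being Hist1h1a, lower in DKO than in Daxx-KO instead of a gene higher. The block drops the unnumbered WT library, and without it and with no block the counts were 7, 32 and 6 (added after seeing the data). No paired analysis was possible because the columns carry no replicate number in the Pu.1 line and for the GMPs of the 3-week table. The comparisons at 24 w.p.i. and those of MPP and LT-HSC libraries were not run, since their columns could not be matched.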

Other observations

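WT cells at 24 w.p.i. were in no comparison. Hist1h4m had 268 and 281 in KLS cells and 278 and 228 in GMPs there, and Hist1h4n had 245 and 158 in KLS cells and 354 and 287 in GMPs. In the same libraries Hist1h1a gave 11.1 and 11.7% of linker reads in KLS cells and 6.94 and 7.36% in GMPs. These tables were normalized separately, and no difference from 3 w.p.i. was tested.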
